A study of Mus musculus with 16 samples.

Results

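Calnexin (Canx) and 9 further genes of protein folding in the endoplasmic reticulum (ER) were followed in haematopoietic stem cells (HSCs) from endosteal and central bone marrow (BM). The 10 genes, of 46078 in the count table, were Canx, Calr, Hspa5, Hsp90b1, Pdia3, Pdia4, Pdia6, P4hb, Xbp1 and Atf4. They were gathered around Canx, which was chosen by the difference of its counts between the genotypes in central BM, so that contrast is given for these genes as a description, and the edgeR values printed for it are those of the choice and support nothing. Each library held 30 HSCs with the surface phenotype LSK CD48-CD150+, taken from untreated C57/Bl6 mice that were either wild type (WT) or labelled Gfra2-/-. The Gfra2-/- animals carry no functional gene for GFRα2, a neurturin receptor that cholinergic neurons need to survive, so the loss is present in every cell of the animal and not in HSCs alone. The bone fraction gave the endosteal HSCs and the marrow fraction the central HSCs. The labels and methods used here give no age for these animals. The groups held 4 WT endosteal, 4 WT central, 4 Gfra2-/- endosteal and 3 Gfra2-/- central libraries, which are lettered within each group below.

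The ER is where secreted and membrane proteins fold. Calnexin and calreticulin hold newly made glycoproteins through their sugar chains, BiP and GRP94 bind exposed stretches of unfolded chains, and protein disulphide isomerases join and rearrange disulphide bonds. When unfolded proteins build up, the sensors IRE1, PERK and ATF6 start the unfolded protein response, in which XBP1 and ATF6 switch on chaperone genes and ATF4 switches on genes of amino acid supply. HSCs make protein slowly and are known to be sensitive to unfolded protein.

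Several libraries stood apart before any chaperone gene was considered. All 10 HSC marker genes examined, among them Kit, Procr, Hlf and Mecom, had counts in all 15 libraries. The 4 WT central libraries were the shallowest of all, with 826487 to 3367289 counts on genes, against 4416648 to 14003634 in WT endosteal, 8519094 to 18550008 in Gfra2-/- endosteal and 7649803 to 14716308 in Gfra2-/- central libraries. WT central A and C had fewer than 1500000 counts on genes, the limit used here for a set of deeper libraries (the study set its limit on uniquely mapped reads, which are more numerous than counts on genes). Gfra2 itself had 0 to 4 counts in the WT libraries, 47 in Gfra2-/- endosteal library B, 9 in D, 2 in A and 1 in C, and 0 to 1 in the Gfra2-/- central libraries. The raw counts of Gfra2-/- endosteal B and D exceeded those of every WT library. Scaled to depth, WT central C was highest, at 4.84 per 1000000 counts on genes, against 2.53 in Gfra2-/- endosteal B and 0.751 in D. Gfra2 was too low in WT HSCs to check the label, and the genotype is given here as labelled. Where a count falls on the gene was not known, and a count outside a deleted part would say nothing of the label. Genes of B cells and plasma cells summed to 4459 normalised counts per 1000000 (CPM) in Gfra2-/- endosteal D and to 26 to 856 CPM in the other 14 libraries. Ighm had the highest mean of these 10 genes through a few libraries, with a median of 2.17 and a maximum of 1597 CPM.

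A textbook element of chaperone genes was looked for in the promoters of the 10 genes, and the windows that hold it are shown. The genes were gathered as ER chaperone and stress genes. The share of the element among them, beside that of all windows, is therefore a description and no test. The ER stress response element (ERSE) is read by ATF6 together with NF-Y, and it was searched as CCAAT, then 9 bases of any kind, then CCACG, on both strands of the RefSeq window from 250 bases before to 50 after the start of each gene (GRCm38.p6). It was present in 5 of the 10 windows and in 39 of all 32851 promoter windows, or 0.119%. In the sequences the letters of CCAAT and CCACG are capitals, each written along the strand on which the element reads forward:
Canx, chr11:50325800-50325818: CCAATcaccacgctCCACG
Calr, chr8:84847075-84847093: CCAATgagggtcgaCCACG
Hspa5, chr2:34772025-34772043: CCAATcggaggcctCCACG
Hsp90b1, chr10:86705638-86705656: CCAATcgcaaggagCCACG
Hsp90b1, chr10:86705533-86705551: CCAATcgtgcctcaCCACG
Pdia6, chr12:17266491-17266509: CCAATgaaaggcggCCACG
The Canx element began 145 bases upstream of the gene start and the Hspa5 element 65 bases upstream. Canx and Calr, the lectin chaperones, Hspa5 and Hsp90b1, which encode BiP and GRP94, and Pdia6 held the element, and Pdia3, Pdia4, P4hb, Xbp1 and Atf4 held no match with these letters in this window. The variant ERSE-II (ATTGG, 1 base, CCACG) occurred in 0 of 10 windows and 0.0365% of all windows, the UPRE letters TGACGTGG in 0 of 10 and 0.676%, and the letters TTGCATCA of the element that ATF4 shares with C/EBP factors in 0 of 10 and 0.895%. The letters CCAAT alone, which are part of the ERSE, occurred in 9 of 10 windows and in 37.4% of all windows. A match describes these letters and does not show binding.

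All 10 genes passed the filter on low counts in each comparison. Per kilobase of exon, the median over the 15 libraries ran from 151 CPM per kb for Canx through Pdia3 (142), Calr (132), Hspa5 (108), Hsp90b1 (103), Pdia6 (88.8), P4hb (87.1), Atf4 (54.8) and Xbp1 (46.1) to 45.7 CPM per kb for Pdia4. Neighbours in this order changed places between libraries. Canx exceeded Pdia3 in 9 of 15 libraries and Hspa5 exceeded Hsp90b1 in 7 of 15, and the clearest steps were from Calr to Hspa5 and from P4hb to Atf4, each in 11 of 15. Across the 15 libraries Calr varied least, with a coefficient of variation of 18.7%, and Pdia4 and Canx varied most, with 62.4% and 50.4%. Together the 10 genes took a mean of 3560 ± 421 of every 1000000 counts (SD, n = 4) in WT endosteal, 3812 ± 178 (n = 4) in WT central, 3487 ± 437 (n = 4) in Gfra2-/- endosteal and 3269 ± 562 (n = 3) in Gfra2-/- central libraries. The groups overlapped in this summed share.

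**Figure D1:**
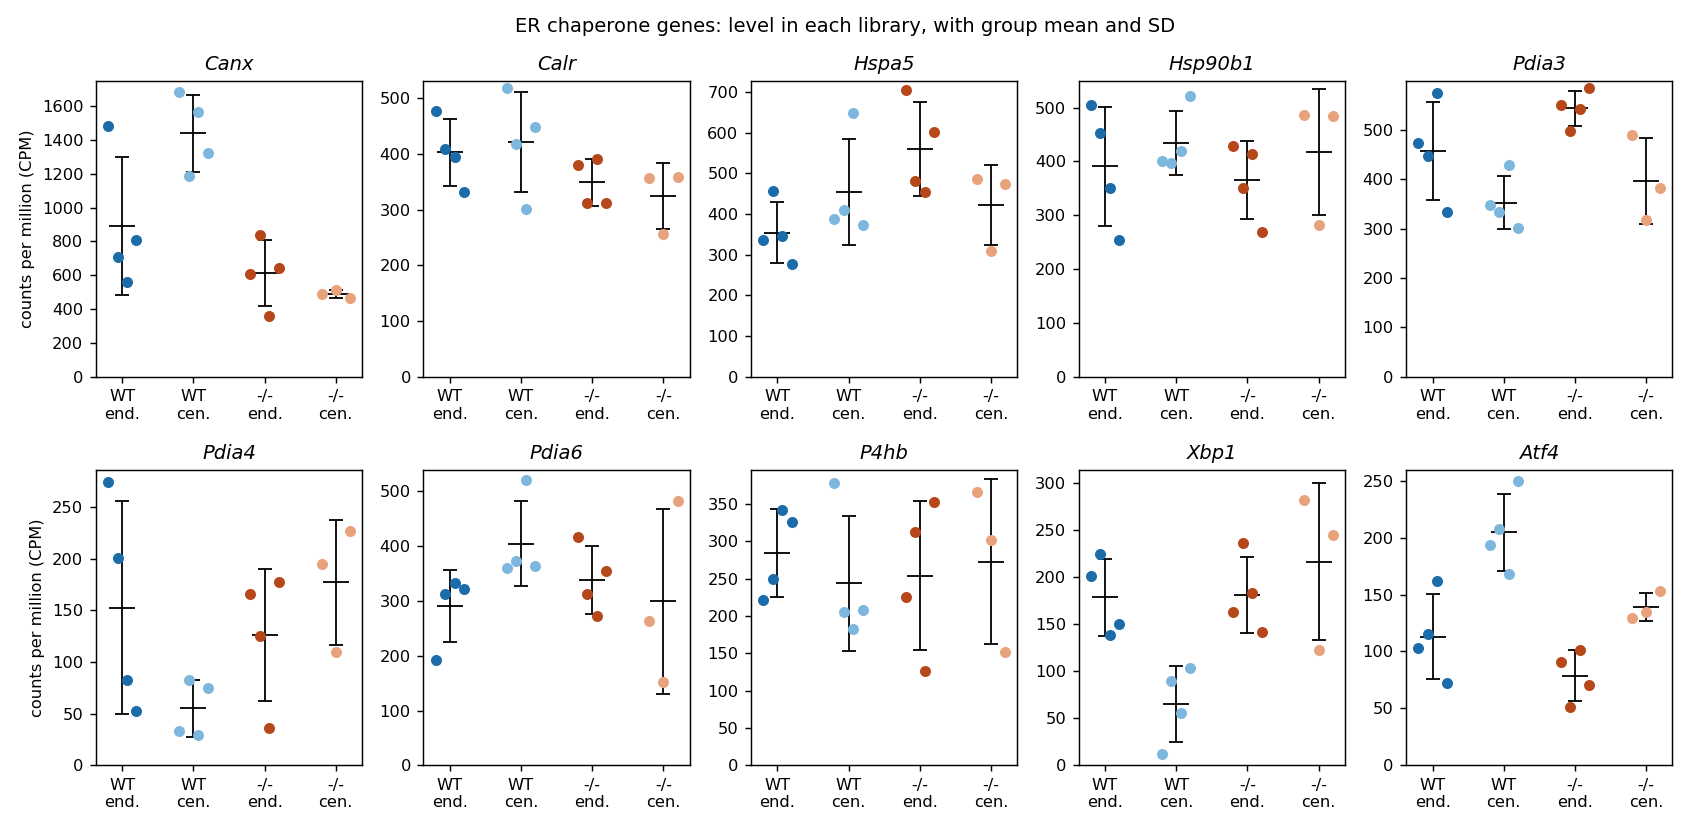
Level of each of the 10 genes in CPM (vertical axes from 0) in every library (points), with the group mean and SD (black), for WT endosteal, WT central, Gfra2-/- endosteal (-/- end.) and Gfra2-/- central (-/- cen.) HSCs. Canx was between 1185 and 1683 CPM in WT central and between 466 and 513 CPM in Gfra2-/- central libraries, and Xbp1 was lowest in WT central libraries; on a spike-in scale the central Canx difference was 0.01 on the log2 scale, which is -1.62 relative to the median of all genes.

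Canx encodes calnexin, the membrane-bound lectin chaperone of the ER, and lies on chromosome 11 from 50293961 to 50325673 on the minus strand (GRCm38), with no other annotated gene over it. It measured 1683, 1185, 1567 and 1322 CPM in WT central libraries A to D and 489, 513 and 466 CPM in Gfra2-/- central libraries A to C. In endosteal HSCs it measured 1483, 708, 560 and 807 CPM in WT libraries A to D and 609, 840, 361 and 643 CPM in Gfra2-/- libraries A to D. Every WT central library lay above every Gfra2-/- central library, whereas the endosteal groups overlapped and WT endosteal A stood with the WT central libraries. The group means in falling order were 1439 ± 226 CPM (SD, n = 4) in WT central, 889 ± 408 (n = 4) in WT endosteal, 613 ± 196 (n = 4) in Gfra2-/- endosteal and 489 ± 23.6 (n = 3) in Gfra2-/- central HSCs. Each neighbour in this order overlapped the next one in single libraries.

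In central BM the fitted log2 fold change of Canx in Gfra2-/- against WT HSCs was -1.58 (SE 0.23), the value on which the gene was chosen. Canx was 1 of 6 genes that passed an FDR of 0.1 in the edgeR quasi-likelihood test of this contrast, or 0.051% of the 11772 genes tested. The other 5 were the mitochondrially encoded mt-Nd2, mt-Nd6 and mt-Co1 and the non-coding CT010467.1 and Gm26917. mt-Co1 and Gm26917 were the last genes inside the limit with an edgeR FDR of 0.0871 and log2 fold changes of 1.47 and -0.99, and Hnrnpa0 (-1.96) and Rnh1 (2.69) were the first outside it with an FDR of 0.136. The inclusion of Canx moved with the libraries: with any 1 of the 7 central libraries left out, its edgeR FDR rose to between 0.132 and 0.467 while its log2 fold change stayed between -1.67 and -1.50.

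The WT central libraries were also the shallowest. In the 5 libraries with at most 4416648 counts, which were the 4 WT central libraries and WT endosteal A, Canx measured 1185 to 1683 CPM. In the 10 libraries with at least 7649803 counts, it measured 361 to 840 CPM. The ranges of the 5 and the 10 libraries did not overlap, as was true of 82 genes higher in all shallow libraries and 24 lower in all of them among 5194 well-counted protein-coding genes (1.58% and 0.462%), and among the 10 chaperone genes it was true of Canx. The shallow class holds the WT central libraries and the other class the Gfra2-/- central libraries, so for Canx this is partly set by its choice. Thinning all counts to the smallest library left the central log2 fold change at -1.68. Whether depth stands here for the amount or quality of starting RNA was not tested, and in central BM depth and genotype cannot be told apart. Nor can fewer Canx transcripts per cell be told apart from a different mixture of cells in these pools.

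**Figure D2:**
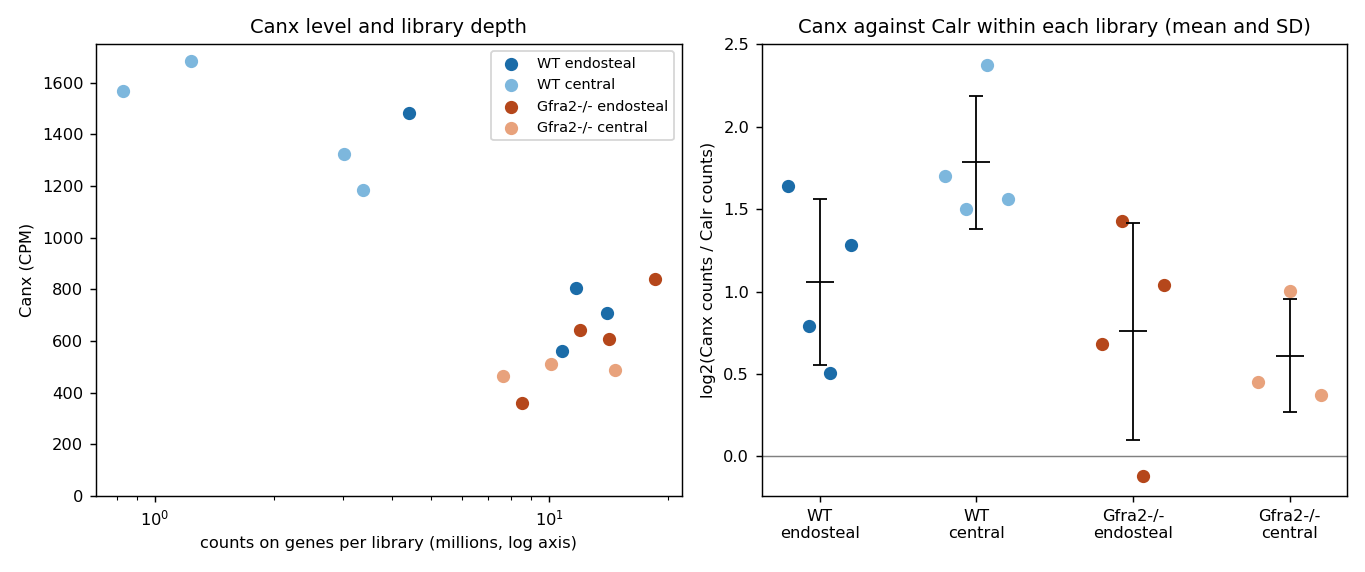
Left, Canx level (CPM) against the counts on genes of each library (log axis), coloured by group; the 5 shallowest libraries lie at 1185 to 1683 CPM and the 10 others at 361 to 840 CPM. Right, log2 ratio of Canx to Calr counts within each library, with group mean and SD, from 1.79 in WT central to 0.61 in Gfra2-/- central HSCs.

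A ratio to Calr within each library needs no scaling between libraries. Calr encodes calreticulin, the soluble relative of calnexin in the ER lumen, and its level was 301 to 518 CPM in the 8 WT libraries and 256 to 392 CPM in the 7 Gfra2-/- libraries. The log2 ratio of Canx to Calr counts was 1.70, 1.5, 2.38 and 1.56 in WT central A to D and 0.45, 1.0 and 0.37 in Gfra2-/- central A to C. In endosteal HSCs it was 1.64, 0.79, 0.51 and 1.28 in WT and 0.68, 1.43, -0.12 and 1.04 in Gfra2-/- libraries. The central groups were separate, which the choice of Canx on these counts set, and the endosteal groups overlapped. Reads of the pseudogene Calr-ps could be shared with Calr, and how they were assigned is not known here.

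The endosteal HSCs shared no library with the central contrast, and the genes were tested there. The study flushed long bones for the central cells and then crushed those bones for the endosteal cells. Endosteal and central libraries may therefore share mice, which the library names do not show. The endosteal test may thus not be independent of the central contrast. The set was gathered with all 4 groups in view, so Canx is given in endosteal BM too without a test. Between the genotypes in endosteal BM, 0 of the 10 genes passed an FDR of 0.1 in edgeR (background 0% of 12970 genes), 0 passed it in DESeq2 (3.72% of 14366), 0 had groups that did not overlap (6.23%), and 1 had an unadjusted p under 0.05 (6.69%). The median log2 fold change of the 10 genes was -0.13, against 0.03 for all genes tested. Canx itself had a log2 fold change of -0.53 (SE 0.34), and its groups overlapped. Without WT endosteal A, which stood with the WT central libraries, this fell to -0.19, and without Gfra2-/- endosteal B and D it was -0.87.

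Hspa5 was the gene with the unadjusted p under 0.05. It encodes BiP, the HSP70 chaperone of the ER that also keeps the stress sensors inactive, and it measured 335, 457, 346 and 278 CPM in WT endosteal A to D and 706, 482, 455 and 601 CPM in Gfra2-/- endosteal A to D. The groups touched at a single pair, since WT endosteal B exceeded Gfra2-/- endosteal C. The log2 fold change was 0.67 (SE 0.24, edgeR p = 0.0178, FDR 0.737, DESeq2 FDR 0.191, exact two-sided permutation p = 0.0571), and therefore did not pass the adjusted test. It stayed between 0.52 and 0.80 with any 1 library left out and was 0.71 without Gfra2-/- endosteal B and D. Within the libraries of low spike-in share (1 in each group) the difference in log2(CPM + 1) was 1.11, and within the others (3 in each group) it was 0.51. Gfra2-/- endosteal D, with its B cell genes, had 601 CPM, and without it the log2 fold change was 0.62. In central BM Hspa5 measured 387, 410, 650 and 373 CPM in WT and 486, 309 and 473 CPM in Gfra2-/- libraries, and these groups overlapped.

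Hsp90b1, which encodes the HSP90 chaperone GRP94, differed little by genotype. It measured 254 to 504 CPM in WT endosteal and 268 to 428 CPM in Gfra2-/- endosteal HSCs, with a log2 fold change of -0.09 (SE 0.27, edgeR FDR 0.971). In central BM the ranges were 396 to 521 CPM in WT and 281 to 487 CPM in Gfra2-/- HSCs. Annotated non-coding genes overlap Hsp90b1, and the counting ignored strand. Protein-coding genes on the other strand overlap Pdia3 (Catsper2) and Pdia6 (Atp6v1c2), and the microRNA gene Mir704 overlaps Pdia4.

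Among the disulphide isomerases, Pdia3 (ERp57, the partner of calnexin and calreticulin) measured 474, 447, 575 and 333 CPM in WT endosteal and 550, 498, 542 and 584 CPM in Gfra2-/- endosteal libraries, with a log2 fold change of 0.26 (SE 0.21, edgeR FDR 0.863). Pdia6, an isomerase that acts on IRE1 and PERK, had a log2 fold change of 0.23 (SE 0.25), P4hb, the founding protein disulphide isomerase, one of -0.16 (SE 0.33), and Pdia4 (ERp72) one of -0.26 (SE 0.59). The edgeR FDR of these 3 genes was between 0.899 and 0.960. Pdia4 spread widest, at 274, 200, 82.7 and 52.7 CPM in WT endosteal A to D and 166, 126, 36.5 and 178 CPM in Gfra2-/- endosteal A to D, so that its groups overlapped almost fully.

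Of the transcription factors, Xbp1 was level between the genotypes in endosteal BM, at 201, 224, 139 and 150 CPM in WT and 163, 236, 183 and 142 CPM in Gfra2-/- libraries (log2 fold change 0.02, SE 0.28, edgeR FDR 0.992). Gene counts do not separate the spliced Xbp1 transcript that encodes the active factor. Atf4 measured 103, 115, 162 and 72.2 CPM in WT and 91, 51.7, 102 and 70.7 CPM in Gfra2-/- libraries, with a log2 fold change of -0.52 (SE 0.37, edgeR FDR 0.833). Its activity is controlled mainly through translation, which these counts do not measure.

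**Figure D3:**
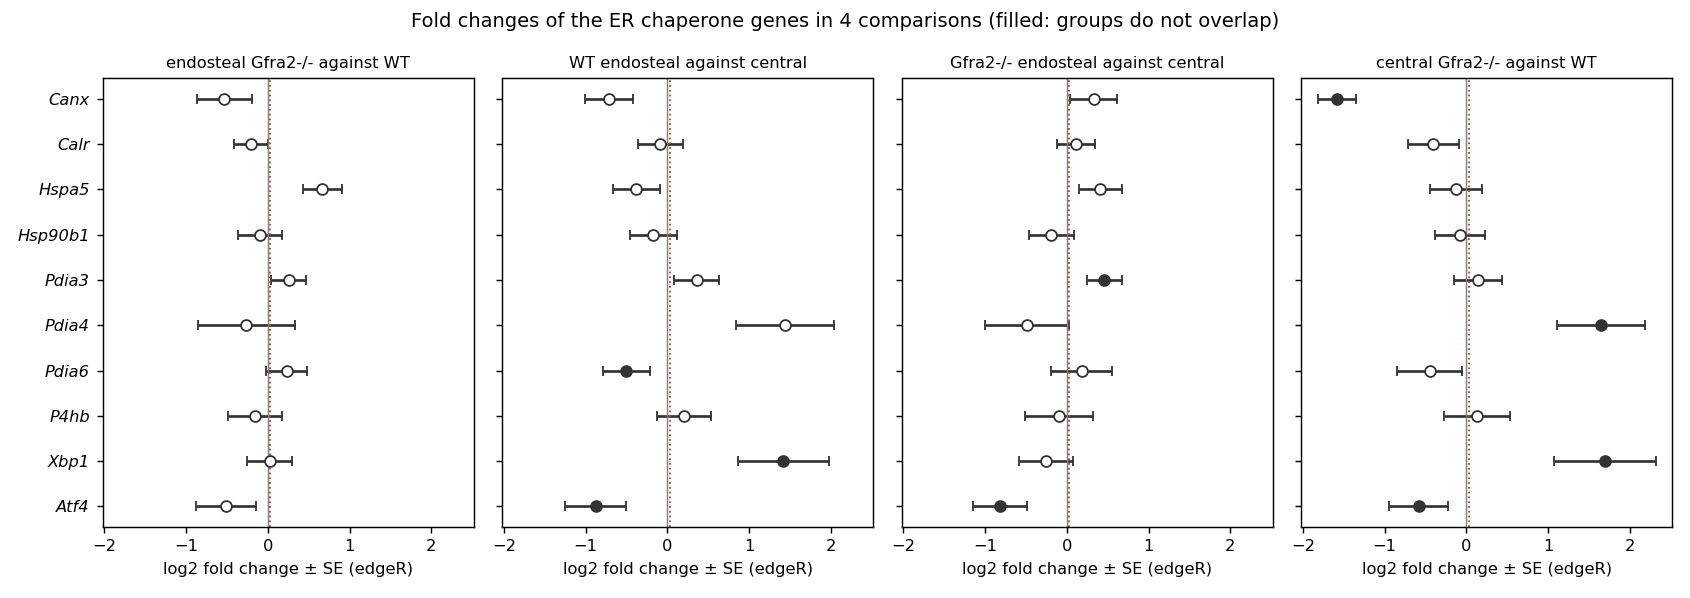
log2 fold change with its SE (edgeR, horizontal axis) of the 10 genes in 4 comparisons; filled points mark genes whose groups did not overlap and the dotted line is the median of all genes tested. In endosteal Gfra2-/- against WT HSCs no gene was filled and Hspa5 lay farthest right at 0.67; the central contrast, where Canx lies at -1.58, is the one on which Canx was chosen, and on a spike-in scale that value was 0.01, which is -1.62 relative to the median of all genes.

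The compartments were compared within each genotype. Both comparisons share their central libraries with the contrast that picked Canx. Every WT central library was shallower than every WT endosteal library, so depth and compartment cannot be told apart in WT HSCs. In WT HSCs the test of endosteal against central libraries called 0 of 10 genes at an FDR of 0.1 in edgeR (0% of 11181) and 0 in DESeq2 (4.49% of 13495), while 4 had an unadjusted p under 0.05 (7.89%) and 3 had groups that did not overlap (6.37%). Canx is 1 of the 4, and its value is no test, since its WT central libraries took part in choosing it. The 3 genes without overlap were Xbp1, Atf4 and Pdia6, and any gene without overlap between 4 and 4 libraries reaches 0.0286, the smallest p that an exact permutation test allows, so that this p is not repeated for them. The median log2 fold change was -0.13 for the 10 genes and 0.03 for all genes.

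Xbp1 measured 201, 224, 139 and 150 CPM in WT endosteal A to D and 12.6, 89.9, 56.1 and 103 CPM in WT central A to D. Every endosteal library was above every central one, with a log2 fold change of 1.42 (SE 0.56, edgeR FDR 0.584). The 12.6 CPM of WT central A rested on 14 counts. Without that library the log2 fold change was 1.08, and with the libraries past the quality limits it was 0.87. Within the libraries of low spike-in share (1 against 1) the difference in log2(CPM + 1) was 0.53, and within the others (3 in each group) it was 2.16. In Gfra2-/- HSCs the Xbp1 groups overlapped, at 163, 236, 183 and 142 CPM in endosteal and 282, 123 and 245 CPM in central libraries (log2 fold change -0.26, SE 0.34, edgeR FDR 0.999).

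Atf4 went the other way and did so in both genotypes. In WT HSCs it measured 103, 115, 162 and 72.2 CPM in endosteal and 193, 207, 168 and 250 CPM in central libraries, without overlap (log2 fold change -0.88, SE 0.37, edgeR FDR 0.594). In Gfra2-/- HSCs it measured 91, 51.7, 102 and 70.7 CPM in endosteal and 129, 135 and 153 CPM in central libraries, again without overlap (log2 fold change -0.82, SE 0.33, edgeR FDR 0.999). The 2 comparisons share no library. Neither passed the adjusted test, and with any 1 library left out the log2 fold change was -1.10 to -0.71 in WT and -0.96 to -0.67 in Gfra2-/- HSCs. Without Gfra2-/- endosteal B and D it was -0.53. Within the libraries of higher spike-in share the difference in log2(CPM + 1) was -0.60 in WT and -0.75 in Gfra2-/- HSCs, and within those of low share (1 library against 1) it was -1.78 and -1.10.

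Pdia6 was lower in every WT endosteal library (192, 313, 333 and 322 CPM) than in every WT central library (360, 373, 520 and 364 CPM), with a log2 fold change of -0.50 (SE 0.29, edgeR FDR 0.688). Pdia4 had a log2 fold change of 1.44 (SE 0.60, edgeR FDR 0.594), at 33.4, 83.1, 29.4 and 74.6 CPM in WT central against 52.7 to 274 CPM in WT endosteal libraries. Its groups overlapped, and it fell to 0.96 without WT endosteal A. Among the libraries of low spike-in share, the single WT endosteal library had less Pdia4 than the single WT central one (-0.49 in log2(CPM + 1)), against 1.91 among the others (3 in each group), and the first value has no spread. Canx had a log2 fold change of -0.71 (SE 0.30), given without a test, and it was -1.11 without WT endosteal A.

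In Gfra2-/- HSCs, 0 of 10 genes passed an FDR of 0.1 between the compartments in edgeR (0% of 13860 genes) and 0 in DESeq2 (2.77% of 14311), 1 had an unadjusted p under 0.05 (4.79%) and 2 had groups that did not overlap (7.35%). These were Atf4 and Pdia3, whose 550, 498, 542 and 584 CPM in endosteal libraries lay above the 489, 317 and 381 CPM in central libraries (log2 fold change 0.46, SE 0.22, edgeR FDR 0.999). The median log2 fold change of the 10 genes was 0.00, against 0.03 for all genes.

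The remaining genes of the central genotype contrast are described beside Canx. The following counts include Canx, whose place the choice set, and are given only beside their background. Of the 10 genes, 1 passed an FDR of 0.1 in edgeR, 1 in DESeq2 (5.14% of 14093 genes) and 3 had an unadjusted p under 0.05 (8.73%), and 4 had groups that did not overlap (12.4%). Canx and Atf4 were lower and Pdia4 and Xbp1 higher in every Gfra2-/- central library. Pdia4 measured 195, 110 and 227 CPM in Gfra2-/- against 29.4 to 83.1 CPM in WT central libraries, a log2 fold change of 1.65 (SE 0.54), and Xbp1 had one of 1.69 (SE 0.62). Pdia4 rested on 22 to 268 counts and Xbp1 on 14 to 308 counts in the WT central libraries. Atf4 had a log2 fold change of -0.59 (SE 0.37). The interaction between genotype and compartment, which includes this contrast, called 0 of 10 genes in edgeR (0% of 15416) and 0 in DESeq2 (1.68% of 14474), with 3 at an unadjusted p under 0.05 (6.97%).

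All these directions are relative to the bulk of genes in a library. Scaling to the spike-in RNAs moved the median of all genes to 1.77 between WT compartments, -0.60 between Gfra2-/- compartments, 1.63 between central genotypes and -0.20 between endosteal genotypes. Relative to these medians Canx was at -1.62 between the central genotypes, Atf4 at -1.47 and -0.94 between the compartments in WT and Gfra2-/- HSCs, Xbp1 at 0.64 between WT compartments, and Hspa5 at 0.91 between endosteal genotypes. Pdia4 between WT compartments, at 1.44 by TMM, was at 0.095 relative to the spike-in median. Unadjusted for the median, the spike-in scale put the central Canx difference at 0.01 and turned the sign of the WT Atf4 difference to 0.29. The spike-in share ranged from 0.192% to 7.10% of the counts.

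Likeness of pattern was taken as the Pearson correlation of log2(CPM + 1) with that of Canx over the 15 libraries, among 5193 other protein-coding genes with at least 10 counts in every library. The 5 most like it were H2afy (r = 0.926), 1810037I17Rik (0.910), Tardbp (0.888), Wwc2 (0.883) and Ptma (0.881), where the median gene had 0.03. After subtraction of group means the values were 0.777, 0.691, 0.861, 0.587 and 0.486. The points share group and depth, and like Canx, all 5 genes were higher in each of the 5 shallowest libraries than in any other. H2afy measured 738 to 1083 CPM in those and 246 to 592 CPM in the other 10 libraries.

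The other chaperone genes were not among the genes named as most like Canx. The profile of Canx includes the central values that chose it, so these ranks are partly set by that choice. Calr came closest, at r = 0.423 and rank 897 of 5193, and Xbp1 was farthest, at -0.64. After subtraction of group means Calr was at -0.019, and the members ranged from -0.63 for Atf4 to 0.45 for Pdia4. Among pairs of the 10 genes the highest values over the 15 libraries were those of Pdia4 with Xbp1 (0.68), Calr with Hsp90b1 (0.60), Hspa5 with Pdia6 (0.58) and Hspa5 with Pdia3 (0.54), and after subtraction of group means they were 0.44, 0.68, 0.63 and 0.66.

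**Figure D4:**
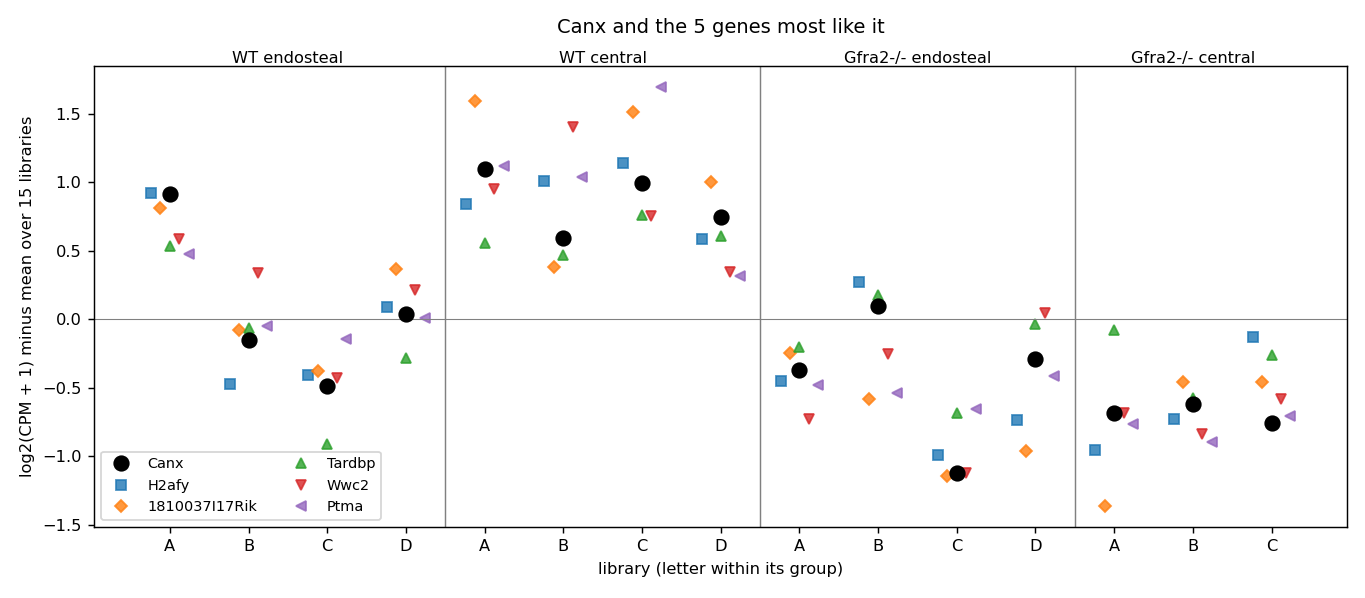
log2(CPM + 1) minus its mean over the 15 libraries (vertical axis) for Canx (black) and the 5 genes with the highest correlation to it, in each library by group. All 6 genes are high in the 4 WT central libraries and in WT endosteal A and lower elsewhere.

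Further genes of the same pathways were examined in 8 lists, in which 0 genes other than Canx passed an FDR of 0.1 in edgeR in any comparison. DESeq2 called single genes at that FDR besides, which are named below, and it also called Edem3 for the interaction. Counts at an unadjusted p under 0.05 in a list of 10 to 20 genes are to be read beside the 6.69% of all genes at that p between the endosteal genotypes and the 7.89% between the WT compartments. Between the genotypes in endosteal HSCs, the calnexin cycle had 2 of 11 tested genes above and 9 below zero, where all genes had 6683 above and 6287 below. The list holds Canx, its median log2 fold change was -0.33, and 0 of its genes had an unadjusted edgeR p under 0.05. Mogs, the first glucosidase to trim the sugar chain, was at 50.3 ± 42.9 in Gfra2-/- and 115 ± 25.7 CPM in WT HSCs (SD, n = 4 each; log2 fold change -1.19, SE 0.61, edgeR FDR 0.750). Uggt1, which puts a glucose back on misfolded glycoproteins, was at 85.7 ± 29.9 and 151 ± 75.6 CPM (log2 fold change -0.81, SE 0.43, edgeR FDR 0.757).

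The translocon and N-glycosylation list, whose proteins bring chains into the ER and attach the sugar, had 4 of 20 genes above and 16 below zero between the endosteal genotypes, with a median of -0.40 and 2 genes lower at an unadjusted edgeR p under 0.05 (6.69% of all genes in either direction). Dad1, a subunit of the oligosaccharyltransferase, measured 334, 257, 280 and 313 CPM in WT endosteal A to D and 167, 141, 123 and 130 CPM in Gfra2-/- endosteal A to D. All WT libraries were above all Gfra2-/- libraries, with a log2 fold change of -1.07 (SE 0.23, edgeR FDR 0.396, DESeq2 FDR 3.78e-05), so the call depended on the tool. With any 1 library left out the log2 fold change was -1.18 to -1.02. In central BM, Dad1 measured 398, 265, 188 and 290 CPM in WT and 133, 108 and 139 CPM in Gfra2-/- libraries, again without overlap (log2 fold change -1.20, SE 0.38, edgeR FDR 0.363, DESeq2 FDR 0.0630). Krtcap2, another subunit of that enzyme, was the second gene, at 104 ± 29 in Gfra2-/- and 183 ± 55.5 CPM in WT endosteal HSCs (log2 fold change -0.82, SE 0.34, edgeR FDR 0.737, DESeq2 FDR 0.289).

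ER-associated degradation, which removes proteins that fail to fold, had 11 of 18 genes above and 7 below zero in endosteal Gfra2-/- against WT HSCs, with a median of 0.33, and 3 genes higher and 1 lower at an unadjusted edgeR p under 0.05 (6.69% of all genes in either direction). Herpud1, a target of the unfolded protein response that organises the degradation complex, measured 102, 143, 108 and 61.1 CPM in WT endosteal and 207, 152, 296 and 290 CPM in Gfra2-/- endosteal libraries. Its groups did not overlap, with a log2 fold change of 1.20 (SE 0.34, edgeR FDR 0.645, DESeq2 FDR 0.0679). Without Gfra2-/- endosteal D it was 1.06. In central BM Herpud1 overlapped between the genotypes, at 155, 190, 30.7 and 148 CPM in WT and 109, 130 and 55.2 CPM in Gfra2-/- libraries. Faf2, which ties the degradation machinery to the ER membrane, was at 119 ± 54.4 in Gfra2-/- and 49.5 ± 19.1 CPM in WT endosteal HSCs (log2 fold change 1.27, SE 0.50, edgeR FDR 0.737).

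Sensors and effectors of the unfolded protein response had 7 of 14 genes above and 7 below zero between the endosteal genotypes, a median of -0.08 and 0 genes at an unadjusted edgeR p under 0.05. Ddit3 (CHOP), a death-linked factor induced under prolonged stress, was at 17.1 ± 11.1 in Gfra2-/- and 40.2 ± 17.0 CPM in WT HSCs (edgeR FDR 0.809), and Mbtps1, the protease that activates ATF6, at 81.1 ± 21.7 and 163 ± 116 CPM (edgeR FDR 0.741). Partners of BiP and GRP94 had a median of 0.07 with 1 gene higher (Hspa5) and 1 lower at an unadjusted p under 0.05. The lower gene was Sil1, a nucleotide exchange factor of BiP, at 37.6 ± 4.08 against 111 ± 85.8 CPM (edgeR FDR 0.737), and Creld2 was at 144 ± 55.3 against 90.4 ± 67.7 CPM (edgeR FDR 0.839).

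Targets of ATF4 had 7 of 13 genes above zero and a median of 0.13, with 1 gene higher and 1 lower at an unadjusted edgeR p under 0.05. Phgdh, the first enzyme of serine synthesis, measured 51.3, 40.2, 53.9 and 41.7 CPM in WT endosteal and 91.2, 61.8, 63.9 and 131 CPM in Gfra2-/- endosteal libraries without overlap (log2 fold change 0.90, SE 0.40, edgeR FDR 0.737), and Slc7a5, an amino acid transporter, was at 8.53 ± 4.00 against 34.7 ± 22.7 CPM (edgeR FDR 0.741). Disulphide isomerases and oxidases had a median of -0.06 with 1 gene in each direction, Tmx3 (119 ± 63.7 against 39.5 ± 29.4 CPM, edgeR FDR 0.737) and the peroxidase Prdx4 (84.8 ± 25.6 against 162 ± 41.0 CPM, edgeR FDR 0.737, DESeq2 FDR 0.0989). Erp29, an ER lumen protein related to the isomerases, did not overlap between the genotypes (144 ± 9.73 against 200 ± 12.3 CPM, log2 fold change -0.47, SE 0.22, edgeR FDR 0.743, DESeq2 FDR 0.0206). ER calcium genes had a median of -0.35 with 1 gene lower, the calcium leak channel Tmco1 (161 ± 32.6 against 335 ± 162 CPM, edgeR FDR 0.737), and the calcium-binding Sdf4 was at 220 ± 49.2 against 322 ± 116 CPM (edgeR FDR 0.757).

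**Figure D5:**
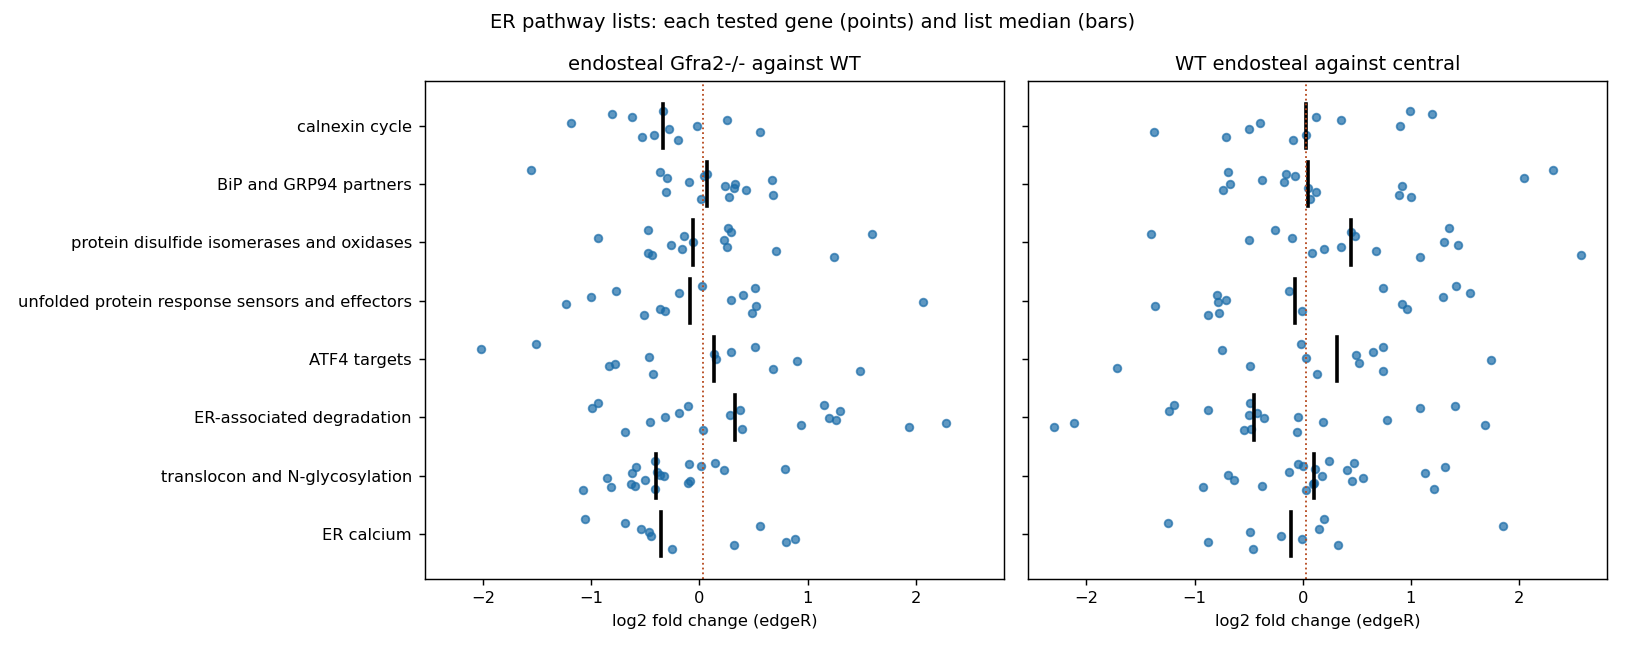
Fitted log2 fold change (edgeR) of each tested gene in 8 lists (points), with the list median (black bar) and the median of all genes (dotted line), for endosteal Gfra2-/- against WT HSCs (left) and for endosteal against central WT HSCs (right). On the left the translocon and N-glycosylation list has its median at -0.40 and the degradation list at 0.33; on the right the degradation list lies at -0.45, and on a spike-in scale all genes of the right panel shift by a median of 1.77.

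Between endosteal and central WT HSCs the same lists had medians from -0.45 for ER-associated degradation, with 5 of 18 genes above zero, to 0.45 for disulphide isomerases and oxidases, with 11 of 15 above zero, against 0.03 for all genes. Ddost, a subunit of the oligosaccharyltransferase, had the smallest p. It measured 521, 335, 520 and 396 CPM in endosteal and 194, 173, 146 and 238 CPM in central WT libraries without overlap, with a log2 fold change of 1.22 (SE 0.30, edgeR FDR 0.343, DESeq2 FDR 0.0409). In Gfra2-/- HSCs it was at 332 ± 55.4 in endosteal and 265 ± 27.3 CPM in central libraries (edgeR FDR 0.999). Krtcap2 of the same list was at 183 ± 55.5 against 344 ± 112 CPM (log2 fold change -0.93, SE 0.37, edgeR FDR 0.584).

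The other genes with the smallest p in each list had an edgeR FDR above 0.4 between the WT compartments. Phgdh (46.8 ± 6.81 against 14 ± 8.34 CPM, DESeq2 FDR 0.0704) and Stim1, the ER calcium sensor (43.9 ± 2.73 against 11.8 ± 7.77 CPM, DESeq2 FDR 0.0847), did not overlap between the WT compartments but had an edgeR FDR of 0.623 each, and Stim1 rested on 3 to 63 counts in WT central libraries. Ube2j1, a ubiquitin-conjugating enzyme of ER-associated degradation, did not overlap either (82.5 ± 22.8 against 30.6 ± 19.9 CPM, edgeR FDR 0.626). Sil1 (111 ± 85.8 against 22.2 ± 15.6 CPM, edgeR FDR 0.483), Hyou1, another exchange factor of BiP (65.5 ± 33.9 against 15.3 ± 14.8 CPM, FDR 0.602), and Edem2 (130 ± 84.3 against 39.5 ± 35.2 CPM, FDR 0.626) were higher in the mean and overlapped. Lman1, a cargo receptor for glycoproteins that leave the ER, was at 68.6 ± 23.9 against 174 ± 115 CPM (edgeR FDR 0.559), and Uggt1 was at 151 ± 75.6 against 65.1 ± 56.8 CPM (FDR 0.641). Among the isomerases and oxidases Txndc5 was at 115 ± 43.2 against 44.2 ± 36.2 CPM and the oxidase Ero1lb at 22.8 ± 16.3 against 3.67 ± 3.32 CPM (edgeR FDR 0.626 each). Mbtps1 was at 163 ± 116 against 65.0 ± 57.0 CPM and the stress factor Creb3l2 at 27 ± 16.6 against 68.3 ± 34.6 CPM (edgeR FDR 0.641 and 0.680). The amino acid transporter subunit Slc3a2 was at 161 ± 55.3 against 101 ± 41.5 CPM and the calcium release channel Itpr1 at 59.5 ± 29.6 against 108 ± 67.3 CPM (edgeR FDR 0.758 and 0.755). On the spike-in scale Krtcap2 and Itpr1 were at 1.45 and 1.60 on the log2 scale, both still under the median of all genes on that scale, 1.77.

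Counts at an unadjusted edgeR p under 0.05 between the WT compartments (7.89% of all genes) were 0 genes higher and 2 lower for the calnexin cycle, which were Lman1 and Canx, the latter no test, 2 and 0 for BiP and GRP94 partners, 1 and 0 for isomerases and oxidases, 1 and 1 for sensors and effectors, 1 and 0 each for ATF4 targets, degradation and ER calcium, and 2 and 1 for translocon and N-glycosylation. Between the Gfra2-/- compartments, where Herpud1 was at 236 ± 69.5 in endosteal and 97.9 ± 38.5 CPM in central libraries without overlap (edgeR FDR 0.896, DESeq2 FDR 0.118), the list medians lay between -0.31 for ATF4 targets and 0.24 for BiP and GRP94 partners. In that comparison 0 to 2 genes of a list were higher and 0 to 1 lower at an unadjusted edgeR p under 0.05 (4.79% of all genes). DESeq2 called the ATF4 target Asns, asparagine synthetase (60.0 ± 38.7 in endosteal against 10.2 ± 9.65 CPM in central libraries, DESeq2 FDR 0.0821, edgeR FDR 0.933), and the degradation gene Edem3 (54.9 ± 39.6 against 8.43 ± 7.88 CPM, DESeq2 FDR 0.0503, edgeR FDR 0.903). Between the central genotypes, given without a test, the list medians lay between -0.48 for the calnexin cycle, which holds Canx, and 0.28 for sensors and effectors. The genes that DESeq2 called there besides Canx and Dad1 were Ero1lb (40.1 ± 16.3 in Gfra2-/- against 3.67 ± 3.32 CPM in WT, where it had 1 to 27 counts), Asns (10.2 ± 9.65 against 0.573 ± 0.569 CPM), Phgdh (57.4 ± 4.6 against 14 ± 8.34 CPM, from 12 to 45 counts in WT) and Edem3 (8.43 ± 7.88 against 48.3 ± 33.9 CPM).

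Of the other cell types, the 10 granulocyte and monocyte genes summed to 476 to 2624 CPM, led by Lyz2, and were highest in WT central C and D. The 10 stromal and osteolineage genes, of which Pdgfrb had the highest mean through 298 CPM in WT central C alone, summed to 299 CPM in WT central C and to 3 to 62 CPM elsewhere. Canx was 1567 and 1322 CPM in WT central C and D and 1683 and 1185 CPM in A and B. Erythroid genes, led by Hbb-bt, summed to 658 CPM in Gfra2-/- endosteal D, the library with the B cell genes, and to 25 to 234 CPM in the other 14 libraries, megakaryocyte genes, led by Vwf, to 229 to 880 CPM, and endothelial genes, led by Eng, to 382 to 1097 CPM, with Cdh5 at 0 counts in all 15 libraries. HSCs are known to express several genes of the last 2 lists.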

How the data were processed

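The authors aligned Smart-seq2 reads to the mouse genome with GSNAP and deposited raw counts per gene from htseq-count (HTSeq 0.5.3p3), made without regard to strand, for 46078 genes, 92 spike-in RNAs and 5 summary categories. The labels name 16 samples. Libraries were assigned to groups through the sample lists of the study, and letters within groups follow the order of the table. The table has 1 more library column, which matched no list and was left out. Counts come from PCR products without molecular identifiers, so depth covers counting error only, and p-values measure the spread between these libraries.

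Symbols, positions and exon lengths came from GENCODE M21 (GRCm38), which holds 45229 of the genes, and promoters from RefSeq (GRCm38.p6), with 1 window for each of the 10 genes. Each comparison was fitted with edgeR 4.0.16 (R 4.3.3) on the libraries of its groups, over all genes after filterByExpr and TMM normalization, with the quasi-likelihood test and Benjamini-Hochberg FDR of 0.1. The interaction used all 15 libraries. Each SE printed with a log2 fold change is its absolute value divided by the square root of the F of the quasi-likelihood test. DESeq2 1.42.0 was an alternative. CPM are counts scaled by TMM over the 15 libraries, and CPM per kb divides by exon length. Exact two-sided permutation tests used log2(CPM + 1), and 0.0286 is the smallest p they allow. The edgeR and DESeq2 steps were tested on simulated data. Python 3.11.15 was used for the rest.

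The named genes were the 10 members, Gfra2, the 5 genes most correlated with Canx, the most abundant gene of each marker list (that of the HSC list is not reported here), and the 2 other genes of smallest edgeR p in each pathway list for the endosteal genotype and WT compartment comparisons. Other genes are named where they define a call, and Kit, Procr, Hlf, Mecom, Erp29, Asns and Edem3 were named after their values were seen. The members and lists were chosen with earlier results of these data known. The symbol Hm13 was not in the table. Alternatives were other tests, scalings, filters and library sets, and each library left out in turn.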

Additional observations from a re-analysis of the deposited data

Results flagged for a closer look

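A library far from the other 3 of its group, by Dixon's test, was found for 3 of the 10 chaperone genes. Hspa5 was at 650 CPM in WT central C, against 373 to 410 CPM in the other WT central libraries. Pdia6 was at 520 CPM in the same library, against 360 to 373 CPM, and at 192 CPM in WT endosteal A, against 313 to 333 CPM. P4hb was at 379 CPM in WT central A, against 183 to 209 CPM. WT central C and A are the libraries with the fewest counts, 826487 and 1230252. The test was applied to 51 groups of 4 libraries, 30 of them of the 10 chaperone genes, and all 4 flags fell among these 30. Chance flags about 1 in 20 groups where values are normal and groups independent, which was not tested for these CPM. Hspa5 and Pdia6 were both flagged in WT central C, so no excess of flags is read from these counts.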

How the results depend on the processing

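No paired analysis was possible because library names in the table show no replicate number. Endosteal and central libraries may come from the same mice, and the tests between compartments took them as unrelated. Spike-in share was under 0.5% in WT endosteal D (0.192%), WT central D (0.421%), Gfra2-/- endosteal D (0.240%) and Gfra2-/- central C (0.240%). A fit with this class of libraries as a block was not run, so the SE and FDR values do not account for it. The cause of a change under an alternative was not tested. The count of chaperone genes called between central genotypes fell from 1 to 0 at an FDR of 0.05, with all 4 groups in one fit, past the quality limits, with spike-in scaling, without the libraries of low spike-in share and with any 1 library left out (0 to 0). Scaling to spike-ins moved the median of all genes to 1.77, -0.60, 1.63 and -0.20 in the 4 comparisons in the order below, and it reversed, against zero, these log2 fold changes: between WT compartments Canx 0.89, Calr 1.35, Hspa5 1.33, Hsp90b1 0.94, Pdia6 1.44, Atf4 0.29, Krtcap2 1.45 and Itpr1 1.60, between Gfra2-/- compartments Canx -0.26, Calr -0.66, Hspa5 -0.26, Pdia3 -0.10, Pdia6 -0.83, between central genotypes Canx 0.013, Calr 1.13, Hspa5 1.71, Hsp90b1 1.37, Pdia6 1.57 and Atf4 0.78, and between endosteal genotypes Pdia4 0.69, Pdia6 -0.10 and Xbp1 -0.20. Relative to the median, those of the 10 genes that turned between Gfra2-/- compartments were Calr (-0.064), Pdia6 (-0.23) and P4hb (0.46). Between central genotypes they were Hspa5 (0.084) and P4hb (-0.12), and between endosteal genotypes Pdia4 (0.90), Hsp90b1 (0.092) and Xbp1 (0.0061). At least 10 counts in every library put the central Hspa5 and Hsp90b1 at 0.056 and 0.084, no filter put the WT Calr at 0.00257, and the quality limits put the central Hspa5 at 0.067. Without the libraries of low spike-in share Hsp90b1 was 0.035 in WT and 0.064 in Gfra2-/- HSCs. Without Gfra2-/- endosteal B and D, the values between Gfra2-/- compartments were -0.013 for Canx and 0.015 for Hsp90b1, and between endosteal genotypes 0.10 for Hsp90b1 and -0.053 for Xbp1. With 1 library left out in turn, the sign turned for Calr (-0.21 to 0.036) between WT compartments, for Calr (-0.029 to 0.19), Pdia6 (-0.13 to 0.71) and P4hb (-0.39 to 0.16) between Gfra2-/- compartments, for Hspa5 (-0.24 to 0.091), Hsp90b1 (-0.23 to 0.12), Pdia3 (-0.034 to 0.26) and P4hb (-0.14 to 0.43) between central genotypes, and for Hsp90b1 (-0.25 to 0.036), Pdia4 (-0.55 to 0.16), P4hb (-0.37 to 0.062) and Xbp1 (-0.14 to 0.14) between endosteal genotypes.

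Of all genes, edgeR called 0 between WT compartments, 0 between Gfra2-/- compartments, 6 between central genotypes, 0 between endosteal genotypes and 0 for the interaction, and DESeq2 called 606, 397, 725, 535 and 243. Between WT compartments and between central genotypes, no filter gave 58 and 134, at least 10 counts in every library 11 and 29, thinned counts 4 and 16, and all 4 groups in one fit 22 and 4, with 1 between endosteal genotypes. Spike-in scaling gave 41 between Gfra2-/- compartments, 2 between central genotypes, 5 between endosteal genotypes and 171 for the interaction. Between central genotypes, the quality limits gave 0 and removal of the libraries of low spike-in share gave 1. Leaving out 1 library gave 0 to 6 between WT compartments and 0 to 8 between central genotypes. The quality limits removed no library from the comparisons between Gfra2-/- compartments and between endosteal genotypes and gave no value there. The low counts of the WT central libraries limit what can be said of Xbp1, Pdia4, Stim1, Ero1lb, Phgdh, Hyou1 and Asns.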
